A study of Schizosaccharomyces pombe with 36 samples.

Results

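Of the 1568 non-coding RNAs (ncRNAs) annotated in fission yeast, *Schizosaccharomyces pombe*, 778 (49.6%) lay antisense to protein-coding genes, and these 778 are described here. The rule used position and name and no expression value. At least 50% of the span of each had to be overlapped by protein-coding features on the opposite strand, and ncRNAs kept for separate study were left out by name, of which 3 met the overlap. The nearest ncRNA outside the limit was SPNCRNA.969 with an overlap of 49.6%, and the nearest inside was SPNCRNA.605 with 50.0%. RNA was measured by strand-specific sequencing of total RNA in 36 libraries, with biological triplicates before (0 min) and 15 or 30 min and 60, 120 or 180 min into 1 M sorbitol, an osmotic stress, for wild-type (WT) cells and for cells labelled *atf21Δ*, in which *atf21*, a gene for a bZIP transcription factor, is named as deleted. Cells of both strains were grown in rich YE medium, and the 0 min cells had no sorbitol. Levels are RPKM, reads per kilobase of feature scaled to the mapped reads of the library. The libraries of the second strain are called *atf21Δ*-labelled.

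A strain check bears on every comparison between strains. The *atf21* feature still had reads in *atf21Δ*-labelled libraries: at 30 min its RPKM was 15.4, 17.8 and 30.4 there and 27.8, 29.2 and 28.1 in WT. At 60 min its mean was 2.72 RPKM there and 0.435 in WT, a log2 difference of 1.63 (adjusted p = 0.00064, limma). The limma test of the strain-by-time interaction, described below, gave an adjusted p of 0.00072 for this feature. The table does not show where along the feature these reads lay, so the deletion could not be checked from it, and each strain direction below rests on the label.

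An antisense ncRNA is read from the strand opposite a gene, so that its sequence pairs with part of the mRNA. In fission yeast such RNAs are kept low by the nuclear exosome, by RNA interference and by chromatin factors that block cryptic start sites, and some are known to affect the gene across from them, above all genes of meiosis. Osmotic stress acts through the MAP kinase Sty1 and the bZIP factor Atf1, which binds sites with the core TGACGT and turns on the stress genes.

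The start regions of 6 antisense ncRNAs on which the results turn are given here: 3 that rose furthest or carry the Atf1 core (SPNCRNA.1611, SPNCRNA.602 and SPNCRNA.1427), a pair that fell and carry it (SPNCRNA.605 and SPNCRNA.1461), and the one opposite *atf21* (SPNCRNA.1457). Each runs 5′ to 3′ on the strand of the ncRNA from 250 bases before its annotated start to 50 after it (RefSeq, ASM294v3), with TGACGT or its reverse complement ACGTCA in capitals. In the order printed they are chrII:3530929-3531228 (minus strand), chrI:51496-51795 (minus), chrII:1297449-1297748 (plus), chrI:90699-90998 (plus), chrII:1756175-1756474 (plus) and chrII:1724592-1724891 (minus).
SPNCRNA.1611: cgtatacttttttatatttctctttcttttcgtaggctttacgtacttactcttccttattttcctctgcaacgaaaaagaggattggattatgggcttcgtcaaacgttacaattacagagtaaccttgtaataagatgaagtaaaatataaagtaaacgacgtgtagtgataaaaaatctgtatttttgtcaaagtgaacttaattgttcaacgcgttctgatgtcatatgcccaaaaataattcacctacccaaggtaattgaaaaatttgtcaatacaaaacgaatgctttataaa
SPNCRNA.602: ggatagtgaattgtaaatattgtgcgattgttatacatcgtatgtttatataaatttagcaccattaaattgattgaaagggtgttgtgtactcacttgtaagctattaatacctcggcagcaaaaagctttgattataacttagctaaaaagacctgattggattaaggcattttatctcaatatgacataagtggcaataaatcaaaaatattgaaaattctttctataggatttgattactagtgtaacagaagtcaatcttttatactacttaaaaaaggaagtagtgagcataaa
SPNCRNA.1427: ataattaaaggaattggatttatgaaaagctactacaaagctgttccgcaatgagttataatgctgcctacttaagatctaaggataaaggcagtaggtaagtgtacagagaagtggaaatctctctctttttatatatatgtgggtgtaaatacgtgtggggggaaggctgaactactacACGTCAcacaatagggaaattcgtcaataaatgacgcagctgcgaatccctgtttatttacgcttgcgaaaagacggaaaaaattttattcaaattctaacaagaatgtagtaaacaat
SPNCRNA.605: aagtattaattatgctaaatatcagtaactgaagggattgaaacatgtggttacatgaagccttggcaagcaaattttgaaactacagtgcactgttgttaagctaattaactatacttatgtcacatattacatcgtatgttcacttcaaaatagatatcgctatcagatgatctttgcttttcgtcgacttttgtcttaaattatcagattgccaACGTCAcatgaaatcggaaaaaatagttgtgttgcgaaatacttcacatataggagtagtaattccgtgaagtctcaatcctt
SPNCRNA.1461: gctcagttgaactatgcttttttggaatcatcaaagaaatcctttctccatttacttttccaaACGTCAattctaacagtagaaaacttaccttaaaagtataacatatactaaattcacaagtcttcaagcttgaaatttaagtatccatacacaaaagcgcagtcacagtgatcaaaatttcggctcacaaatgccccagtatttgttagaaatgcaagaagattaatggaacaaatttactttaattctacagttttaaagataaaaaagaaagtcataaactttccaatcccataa
SPNCRNA.1457: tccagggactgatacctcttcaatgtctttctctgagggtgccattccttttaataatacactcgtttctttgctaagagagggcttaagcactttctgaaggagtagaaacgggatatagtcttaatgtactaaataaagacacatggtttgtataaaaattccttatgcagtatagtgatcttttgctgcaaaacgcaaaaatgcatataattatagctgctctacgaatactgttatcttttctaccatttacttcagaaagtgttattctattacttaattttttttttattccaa

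The capitals began 69 bases before the start of SPNCRNA.1427, 33 before that of SPNCRNA.605 and 187 before that of SPNCRNA.1461, and the other 3 windows did not hold the motif. Of the 778 antisense ncRNAs, 741 matched RefSeq by identifier and 735 had the same span there. Of 5122 nuclear protein-coding genes 5104 matched, but only 281 had the same span. Windows of protein-coding genes thus lie at RefSeq starts, which can differ from the starts of the features measured. Shares of windows are therefore not strictly comparable between ncRNAs and protein-coding genes. TGACGT, on either strand and with no other motif searched, stood in 54 of the 735 windows (7.35%), in 7.95% of those of other ncRNAs, in 5.92% of those of protein-coding genes and in 5.49% of all 12605 windows of the annotation. Among antisense ncRNAs higher at 30 min in WT it stood in 3 of 22 windows, and among those lower in 4 of 29, beside 26 of 398 (6.53%) of those tested. In *atf21Δ*-labelled libraries it stood in 4 of 32 and 5 of 56. Of protein-coding genes higher at 30 min in WT, 127 of 833 windows (15.2%) held it. Counts of 3 to 5 windows are too few to compare these shares. A match is a description of the letters and not of a bound site.

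Most antisense ncRNAs spanned much of a gene. Their median length was 1302.5 bases, against 749 for other ncRNAs, and 281 were wholly overlapped. By the gene with the largest overlap, 262 were head-to-head (5′ ends overlapping), 247 were contained in the gene, 161 were tail-to-tail (3′ ends overlapping) and 108 contained the whole gene. Chromosomes I, II and III held 350, 279 and 149. The 778 lay opposite 722 genes, of which 48 had 2 or more antisense ncRNAs, so that some share a gene. A further 220 overlapped another feature on their own strand, 69 of them over more than 50% of their span, and reads there cannot be assigned to either feature with certainty. Median GC content was 36.2%, near the 36.8% of protein-coding genes and above the 33.1% of other ncRNAs.

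Antisense ncRNAs were low. The median over the 778 of the mean RPKM at 0 min was 0.686 in WT and 0.792 in *atf21Δ*-labelled libraries, against 13.2 and 14.6 for protein-coding genes and 0.356 and 0.398 for other ncRNAs. They took 0.160 to 0.310% of the reads on features in a library, 15333 to 50086 reads, from libraries of 7457173 to 20126545 mapped reads. Opposite genes with at least 1 RPKM, the antisense ncRNA was at a median of 4.89 to 6.76% of the mRNA over the 12 groups, per length on the RPKM scale, and opposite mRNAs of 500 RPKM or more the medians were between 0.00926 and 0.0355%. In all, 326 had a read in every library, 41 had 0 reads in all 36 libraries and 58 had under 3 reads in each. A count of 0 allows up to 3 reads, and this floor covers counting error only.

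The level of the class, as RPKM before any scaling, was lower at 15 and 30 min than at 0 or 60 min and lower again at 180 min. Over the 5 times from 15 to 180 min the median RPKM was 0.495, 0.536, 0.820, 0.641 and 0.602 in WT and 0.601, 0.652, 0.827, 0.792 and 0.624 in *atf21Δ*-labelled libraries. Other features had low medians early too: protein-coding genes in WT went from 13.2 to 9.04, 10.6 and 13.7 at 15, 30 and 60 min, and other ncRNAs from 0.356 to 0.236, 0.326 and 0.373. Antisense ncRNAs at or above 1 RPKM numbered 304, 234, 232, 345, 294 and 273 over the 6 times in WT and 348, 268, 277, 339, 338 and 279 in the other strain. The values for WT at 15 min rest on libraries that differ. Replicates 1 and 3 had 257 and 342 antisense ncRNAs with 0 reads, and replicate 2 had 150. At an equal depth these numbers were 282, 354 and 169, and the other 33 libraries lay between 125 and 219. Replicate 2 alone had a median of 0.552 RPKM and 248 at or above 1 RPKM. Calls for WT at 15 min are therefore also given without both libraries. In bulk libraries, fewer cells making an RNA and less RNA per cell cannot be told apart.

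**Figure D1:**
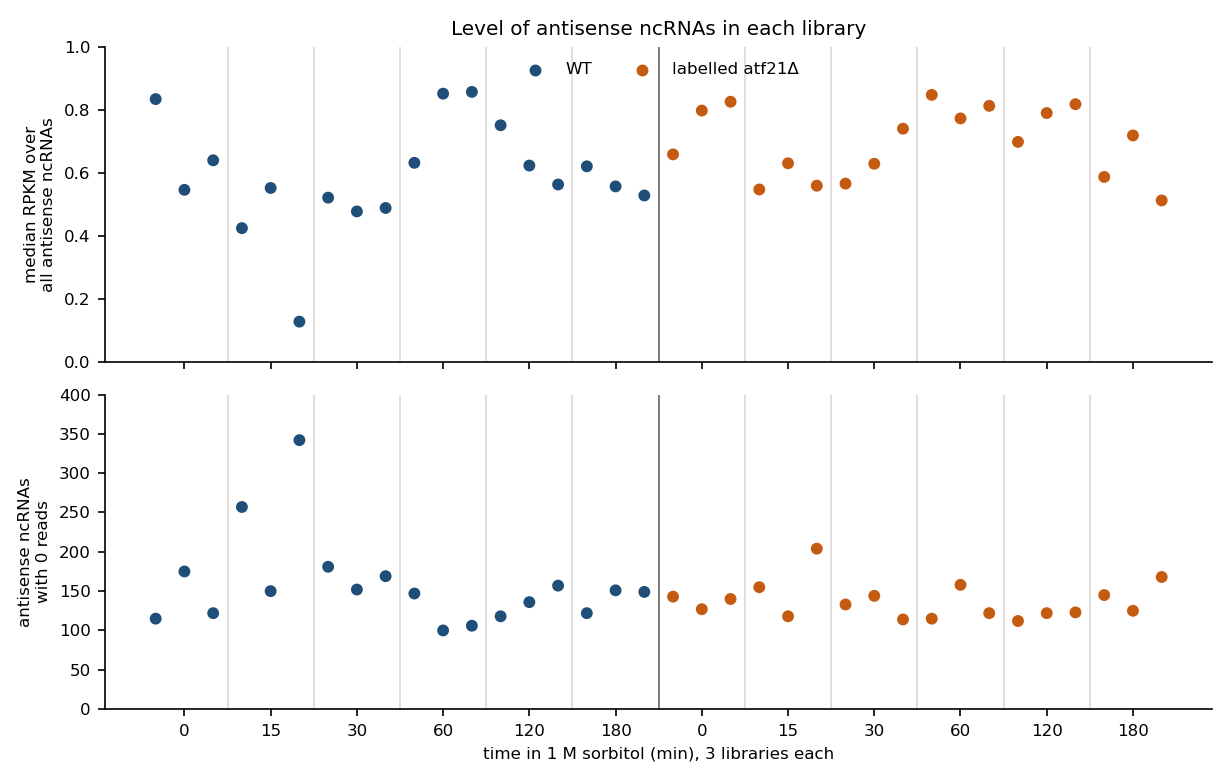
Median RPKM over the 778 antisense ncRNAs (top) and the number of them with 0 reads (bottom) in each of the 36 libraries, 3 per time in 1 M sorbitol (min). WT replicate 3 at 15 min had the lowest median, 0.127, and the most with 0 reads, 342, followed by WT replicate 1 with 257.

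To ask which antisense ncRNAs changed over the time course, each strain was compared with its own 0 min cells. A feature was tested if it reached 1 RPKM in more than 6 of the 36 libraries, which 402 of the 778 did (51.7%), against 94.9% of protein-coding genes. The other 376 had mean levels of at most 0.757 RPKM and are not covered by any count of changes. Changes are given as log2 of (RPKM + 0.5) after scaling of the libraries, a scale that understates the change of low features, and adjusted p-values are from limma with Benjamini-Hochberg adjustment over all 5882 features tested.

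In WT, 111 of the 402 changed over time by the F-test (27.6%), against 51.8% of all features, 56.4% of protein-coding genes and 25.9% of other ncRNAs. In *atf21Δ*-labelled libraries, 165 changed (41.0%), against 62.2% of all features, 68.4% of protein-coding genes and 36.3% of other ncRNAs. The share of antisense ncRNAs called was thus near that of other ncRNAs and below that of all features in both strains. In all, 81 were called in both strains, 30 in WT alone and 84 in the other strain alone. Features as a whole were also called more often in the second strain, 62.2% against 51.8% in WT. Their own split was not worked out, so the 30 and 84 are not read as a difference between strains. The tests of such a difference are given further on. Low depth touches these counts: 281 of the 402 had under 50 reads per library on average. In simulated WT reads a 2-fold change was recovered in 19.6% of antisense ncRNAs but in 45% of all features. The shares called are therefore not shares of RNAs that changed. Among those changed by more than 2-fold there were 67 in WT, 31 that rose and 36 that fell, or 16.7% beside 17% of all features. In the *atf21Δ*-labelled strain there were 76, 32 that rose and 44 that fell, or 18.9% beside 16.1%. Common to both strains were 39, a number not worked out for all features.

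Most of these changes peaked at 15 or 30 min. Of the 31 that rose in WT, 18 were furthest from their start at 30 min, 9 were so at 60 min and 3 at 15 min. Of the 36 that fell, 14 were furthest at 15 min and 13 at 30 min, and without both 15 min libraries rich in zeros 9 and 15 of 34 were. In *atf21Δ*-labelled cells, 18 of 32 rises and 22 of 44 falls were furthest at 30 min, and 10 rises and 6 falls were so at 15 min.

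At 15 min in WT, 11 antisense ncRNAs were higher and 33 lower than at 0 min, beside 10.8% and 11.5% of all features tested. The 33 depended on single libraries: the count was 17, 19 and 17 without replicate 1, 2 or 3 of the 0 min cells, 52 without replicate 2 at 15 min and 14 without both libraries rich in zeros. The 11 became 5 and 7 without replicate 2 or 3 at 0 min and 12 without both libraries rich in zeros, where 5.93% of all features were higher and 7.16% lower. In *atf21Δ*-labelled libraries, 24 were higher and 26 lower at 15 min, beside 13.4% and 14.1% of all features, and 17 were lower without replicate 2 at 0 min.

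At 30 min, 24 were higher and 29 lower in WT, beside 15.5% and 13.2% of all features, and without replicate 1 at 0 min 18 were lower. In the *atf21Δ*-labelled strain, 34 were higher and 56 lower, beside 19.7% and 19.1%. The share lower was 7.21% of the antisense ncRNAs in WT and 13.9% in the other strain, and in each strain the share called was below that of all features in both directions.

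At 60 min, 15 were higher and 20 lower in WT, beside 7.6% and 7.24%, and 15 were higher and 41 lower in *atf21Δ*-labelled libraries, beside 8.65% and 10.9%. In WT the 15 fell to 9, 7 and 8 without 0 min replicate 2, 0 min replicate 3 or 60 min replicate 1, and the 20 became 9, 11, 9, 9 and 13 without 0 min replicate 1, 2 or 3 or 60 min replicate 2 or 3, and 31 without both 15 min libraries rich in zeros. In the other strain the 15 became 8 without 0 min or 60 min replicate 2, and the 41 became 27 without 0 min replicate 1.

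Few calls stood later. At 120 min, 3 were higher and 10 lower in WT, beside 3.21% and 2.38% of all features. At 180 min in WT, 3 were higher and 6 lower, beside 2.72% and 2.28%. In *atf21Δ*-labelled cells, 12 were higher and 28 lower at 120 min, beside 4.69% and 4.98%, and 8 were higher and 29 lower at 180 min, beside 4.45% and 4.25%. There, more antisense ncRNAs were lower than higher, with 7.21% lower at 180 min against 6.63% of other ncRNAs and 3.96% of protein-coding genes. Counts this small moved with single libraries: the 28 became 17, 16 and 17 without 0 min replicate 1 or 2 or 120 min replicate 3, and the 29 became 18, 19 and 17 without 0 min replicate 1 or 2 or 180 min replicate 3. With 1 library left out, the calls higher and lower in WT ranged from 1 to 7 and 5 to 16 at 120 min and from 1 to 3 and 4 to 11 at 180 min (8 and 19 and then 4 and 16 without both 15 min libraries rich in zeros), and the 12 and 8 higher in *atf21Δ*-labelled cells ranged from 5 to 11 and 3 to 8.

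**Figure D2:**
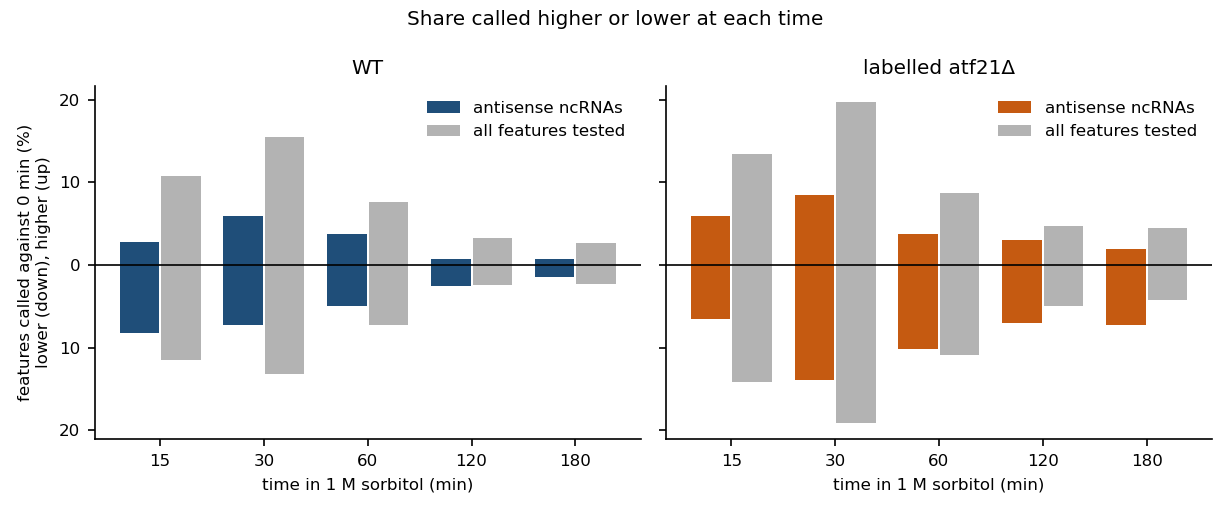
Percent of the 402 antisense ncRNAs tested (coloured) and of all 5882 features tested (grey) called higher (upward bars) or lower (downward bars) than at 0 min, by time in 1 M sorbitol, for WT and for *atf21Δ*-labelled libraries. The coloured bars are shorter than the grey ones at 15 and 30 min in both directions and strains.

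Over the 402 tested, the median change at 30 min was -0.24 in WT and -0.17 in *atf21Δ*-labelled libraries on the log2 scale, beside -0.01 and -0.02 over all features. Below 0 lay 263 of the 402 in WT (65.4%) and 248 (61.7%) in the other strain, beside 50.7% and 52.0% of all features. Other ncRNAs had like medians, -0.19 and -0.23. At 15 min the medians were -0.19 in WT and -0.14 in the other strain, but in WT the 3 libraries gave 0.02, -0.08 and -0.44, without both libraries rich in zeros it was -0.085, and after quantile normalization the WT median was 0.10. Scaling sets these values against the bulk of the features: without it the median of all features in WT was itself -0.46 at 15 min and -0.38 at 30 min, and in *atf21Δ*-labelled libraries it was -0.43 and -0.30.

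Single antisense ncRNAs moved much further than the class. Those named were the 6 largest rises and 6 largest falls at 30 min in WT among those that passed the F-test in both strains and whose 30 min libraries all lay beyond the 0 min libraries in both, which 16 rises and 33 falls did. That choice used the values, so the fold changes and the lack of overlap between 0 and 30 min are part of it and only describe the 12. Their adjusted p-values are those of the fit across all features.

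SPNCRNA.1611 (chrII:3529599-3530978, minus strand) contains the whole of *hhf3* (SPBC1105.12), a gene for histone H4, and rose furthest. Its RPKM in WT was 0.0866, 0 and 0.302 at 0 min, 1.76, 2.04 and 3.09 at 15 min and 5.05, 6.54 and 6.14 at 30 min, and 0.292, 0.273 and 0.123 at 60 min. In *atf21Δ*-labelled libraries it was 0.0726, 0.0537 and 0.169 at 0 min and 6.98, 9.30 and 8.87 at 30 min. It was thus close to absent before stress, highest at 30 min with no overlap between groups, and back near its start by 60 min in both strains. The log2 change at 30 min was 3.65 (SE 0.31, adjusted p = 2.6e-07) in WT and 3.97 (SE 0.22, adjusted p = 4.0e-10) in the other strain, and 5.98 in WT on recovered reads, where no pseudocount holds it down. The *hhf3* mRNA was above its 0 min level at 30 min by 0.71 (adjusted p = 0.016) and below it at 60 min by -1.35 (adjusted p = 7.4e-05) on the log2 scale in WT. Genes for histone H4 are near copies and only uniquely mapped reads were counted, so the *hhf3* level is uncertain.

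SPNCRNA.602 (chrI:50851-51545, minus strand) lies head-to-head with *sod2* (SPAC977.10), which encodes a sodium ion/proton antiporter of salt tolerance. It rose later than SPNCRNA.1611. Its RPKM in WT was 0.430, 0.584 and 0.8 at 0 min, 0.214, 0.653 and 0 at 15 min, 10.3, 3.44 and 7.03 at 30 min and 10.2, 14.9 and 11.2 at 60 min. In the *atf21Δ*-labelled strain it was 0.288, 0.640 and 0.251 at 0 min, 3.67, 5.26 and 3.13 at 30 min and 8.44, 7.49 and 6.58 at 60 min. At 15 min the groups overlapped with 0 min, and at 30 and 60 min they did not. The log2 change at 60 min was 3.46 (SE 0.41, adjusted p = 1.4e-05) in WT and 3.09 (SE 0.32, adjusted p = 1.2e-06) in the other strain, where it was still called at 120 min (1.35, adjusted p = 0.0050). The *sod2* mRNA changed by -0.19 at 30 min (adjusted p = 0.42) and 0.16 at 60 min (adjusted p = 0.52) in WT.

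SPNCRNA.1427 (chrII:1297699-1298710, plus strand) is contained in *wsc1* (SPBC30B4.01c), a gene for a cell surface receptor of the cell wall pathway. Its RPKM was 0.709, 0.1 and 0.618 at 0 min and 5.03, 2.54 and 2.27 at 30 min in WT. In *atf21Δ*-labelled cells it was 0.198, 0.293 and 0 at 0 min, 1.85, 2.09 and 2.57 at 15 min and 3.63, 4.08 and 4.6 at 30 min. The log2 rise at 30 min was 2.25 (adjusted p = 0.00025) in WT and 2.89 (adjusted p = 3.6e-07) in the other strain, with no library of 30 min as low as any of 0 min. The *wsc1* mRNA changed by 0.31 (adjusted p = 0.35) in WT and rose by 0.53 (adjusted p = 0.020) in the other strain.

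The other 3 rises were called at 15, 30 and 60 min in WT. SPNCRNA.1280 (chrIII:2286843-2289468, plus strand) is head-to-head with SPCC965.04c, the gene of a mitochondrial AAA protease of the Yme1 type, and had 0.478, 0.386 and 0.609 RPKM at 0 min and 4.37, 3.44 and 5.17 at 30 min in WT. Its log2 change was 2.58 at 30 min and still 1.13 at 180 min (adjusted p = 0.016), the latter lost without replicate 2 at 0 or at 180 min, and in *atf21Δ*-labelled libraries it was 2.79 and 1.21 (adjusted p = 0.0033). SPNCRNA.1523 (chrII:2515001-2516186, minus strand) is head-to-head with SPBC365.11, which encodes a Golgi GRIP domain protein, and had 0.907, 0.684 and 1.05 RPKM at 0 min and 4.91, 4.03 and 5.93 at 30 min in WT, a log2 rise of 2.30 (adjusted p = 2.0e-06). In *atf21Δ*-labelled libraries its 30 min values were 7.99, 7.87 and 12.5 RPKM, after 0.761, 1.81 and 1.62, and at 60, 120 and 180 min it was not called there (adjusted p = 0.16, 0.14 and 0.11). SPNCRNA.657 (chrI:510357-511293, plus strand), tail-to-tail with *yth1* (SPAC227.08c) of the mRNA cleavage and polyadenylation complex, had 3.19, 2.60 and 5.41 RPKM at 0 min, 16.7, 10.7 and 11.3 at 30 min and 10.7, 14.6 and 11.4 at 60 min in WT. Without both 15 min libraries rich in zeros, the 15 min call held for SPNCRNA.1523 (adjusted p = 7.7e-05) and was lost for SPNCRNA.1280 (adjusted p = 0.063) and SPNCRNA.657 (adjusted p = 0.50).

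SPNCRNA.605 (chrI:90949-94038, plus strand) fell furthest. It contains SPAC1F8.04c, the gene of a predicted hydrolase, and 26.1% of its span is shared with a feature on its own strand. Its RPKM was 10.3, 8.64 and 10.8 at 0 min, 3.60, 2.79 and 1.32 at 15 min and 1.9, 1.2 and 1.88 at 30 min in WT. In the *atf21Δ*-labelled strain it was 7.20, 9.07 and 11.4 at 0 min and 2.05, 1.33 and 3.01 at 30 min. The groups did not overlap at 15 or 30 min, and at 120 min the values were 6.35, 8.43 and 5.93 in WT, where the change was no longer called (adjusted p = 0.22). The log2 change at 30 min was -1.95 (SE 0.22, adjusted p = 7.0e-06) in WT and -1.64 (SE 0.21, adjusted p = 1.3e-05) in the other strain. The mRNA across from it stayed at or under 1.77 RPKM at 0 and 30 min in every library. At 60 min it had 1.13, 2.82 and 2.86 RPKM in WT and 2.54, 1.92 and 2.11 in *atf21Δ*-labelled libraries, a log2 change of 0.86 (adjusted p = 0.29) and a rise of 1.02 (adjusted p = 0.0039).

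Of the other 5 falls, SPNCRNA.1334 (chrII:275118-275866, minus strand), head-to-head with SPBC800.11, a gene for a nucleoside hydrolase, went from 13.1, 8.40 and 8.72 RPKM to 2.90, 2.48 and 0.767 in WT. SPNCRNA.1461 (chrII:1756425-1757286, plus strand), contained in SPBC1D7.01, which encodes prefoldin subunit 1, a chaperone of actin and tubulin, went from 13.7, 10.2 and 9.59 to 4.24, 2.77 and 1.75 RPKM. These had the highest RPKM of the 5 at 0 min in WT, and both fell in *atf21Δ*-labelled libraries too, by -2.14 (adjusted p = 0.0012) and -1.30 (adjusted p = 0.0040) on the log2 scale. SPNCRNA.1656 (chrII:4014998-4016577, plus strand), tail-to-tail with the nucleoporin gene *nup120* (SPBC3B9.16c), had 2.35, 1.54 and 1.01 RPKM at 0 min, 0.0723, 0 and 0.273 at 30 min and 2.29, 2.96 and 1.51 at 60 min in WT, and then 0.406, 0.291 and 0.401 at 180 min (log2 -1.14, adjusted p = 0.055). In *atf21Δ*-labelled libraries it was called lower at 30 min and again at 120 min (-1.05, adjusted p = 0.0041) and 180 min (-1.01, adjusted p = 0.0054), but not at 60 min. SPNCRNA.1045 (chrI:5098866-5100248, plus strand) contains *mug95* (SPAC1250.02), a gene named for its rise in meiosis, and went from 4.93, 2.86 and 3.22 to 0.744, 0.768 and 0.623 RPKM at 30 min and back to 3.68, 4.08 and 4.42 at 60 min in WT. In *atf21Δ*-labelled cells it was called lower at 15 min (log2 -1.51, adjusted p = 0.0056), and at 30 min the change was -0.99 with adjusted p = 0.062.

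SPNCRNA.832 (chrI:2523434-2525232, plus strand) fell across from the mRNA with the largest rise of those named. It is head-to-head with SPAC23H3.15c, which encodes a stress protein of the Ddr48 type, and had 2.13, 1.64 and 3.51 RPKM at 0 min and 0.349, 0.492 and 0.160 at 30 min in WT. The mRNA had 8.03, 8.41 and 10.1 RPKM at 0 min and 2347, 1869 and 1889 at 30 min. The log2 change of the ncRNA was -1.57 (adjusted p = 0.0076) in WT, a call lost without replicate 3 at 0 min, and -1.09 (adjusted p = 0.0014) in *atf21Δ*-labelled libraries. The mRNA changed by 8.15 and 8.44 on the same scale.

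**Figure D3:**
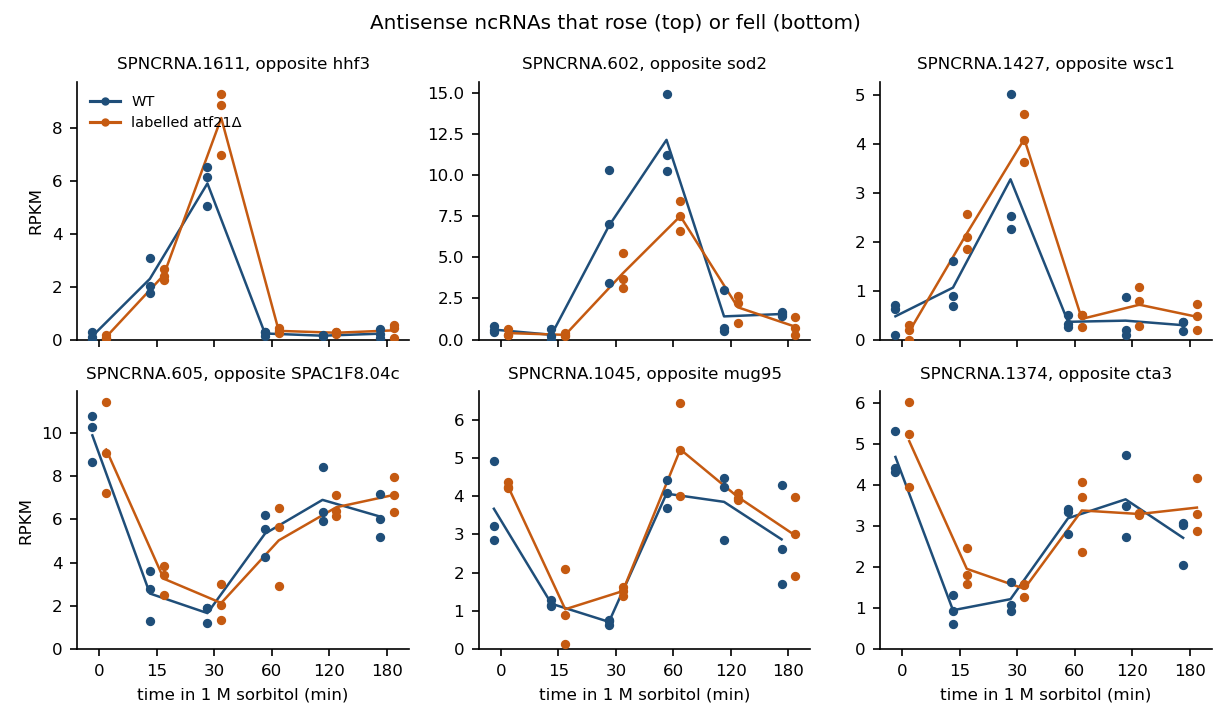
RPKM of 6 antisense ncRNAs by time in 1 M sorbitol (min), each point a library and each line the mean of 3, in WT and in *atf21Δ*-labelled libraries. SPNCRNA.1611 and SPNCRNA.1427 peaked at 30 min and SPNCRNA.602 at 60 min, while SPNCRNA.605 and SPNCRNA.1045 were low at 15 and 30 min and SPNCRNA.1374, opposite *cta3*, was low at the same times.

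The most abundant antisense ncRNAs were not called as changed over time. Only 3 exceeded 100 RPKM in any group, and they did so in all 12. SPNCRNA.1042 (chrI:5009787-5011504, minus strand), tail-to-tail with SPAC890.05, a gene of ribosome biogenesis, had 377, 233 and 301 RPKM at 0 min and 474, 313 and 244 at 30 min in WT. SPNCRNA.1651 (chrII:3962699-3963115, plus strand), tail-to-tail with SPBC26H8.16, had 205, 105 and 102 and then 242, 143 and 122 RPKM, with 23.0% of its span shared with a feature on its strand. SPNCRNA.1236 (chrIII:1859963-1860577, plus strand), tail-to-tail with the RNA polymerase II elongation factor gene *eaf1* (SPCC1223.10c), had 174, 139 and 151 and then 131, 166 and 102 RPKM. None of the 3 passed the F-test in either strain (adjusted p between 0.20 and 0.87), their 0 and 30 min libraries overlapped, and the order of SPNCRNA.1651 and SPNCRNA.1236 does not exceed their spread. This does not show that they were level. In WT the log2 change of SPNCRNA.1042 was 0.90 at 15 min (SE 0.32, adjusted p = 0.076). That of SPNCRNA.1651 was 0.70 at 30 min (SE 0.29, adjusted p = 0.12). Each stood far above the mRNA across from it at 0 min: SPAC890.05 had 19.9, 15.6 and 16.3 RPKM and *eaf1* 7.98, 4.74 and 6.10.

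Some changes were late. SPNCRNA.1307 (chrII:83799-85528, plus strand), contained in SPBPB10D8.02c, the gene of an arylsulfatase, had 7.33, 4.75 and 4.42 RPKM at 0 min, 1.40, 1.18 and 1.37 at 60 min and 1.90, 0.897 and 1.52 at 180 min in WT. Its log2 change at 60 min was -1.66 (adjusted p = 0.0016) in WT and -1.70 (adjusted p = 3.0e-05) in *atf21Δ*-labelled libraries, and at 180 min it was still -1.49 and -0.97, with no overlap with 0 min. The mRNA across from it was lower at 180 min as well, by -1.06 (adjusted p = 0.0044) and -1.31 (adjusted p = 2.3e-05). SPNCRNA.1371 (chrII:561072-562378, plus strand), tail-to-tail with SPBC354.08c, a gene for a membrane transporter, went from 3.52, 3.03 and 3.14 to 0.964, 0.812 and 0.0718 RPKM at 120 min in WT, a log2 change of -1.79 (adjusted p = 0.0068). SPNCRNA.1214 (chrIII:1650949-1652838, minus strand), contained in SPCC663.10, which encodes a tRNA methyltransferase, went up from 1.42, 0.537 and 0.845 to 2.47, 4.03 and 1.99 RPKM at 120 min (log2 1.25, adjusted p = 0.033), a call lost without replicate 2 or 3 at 0 min or replicate 1 or 2 at 120 min.

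To ask whether an antisense ncRNA and the mRNA across from it moved together, the 371 pairs in which both were tested were compared over the 18 libraries of each strain. The correlation is a description of 18 points that share libraries and depth. On log2 RPKM the median r was 0.27 in WT and 0.26 in *atf21Δ*-labelled libraries, and after scaling of the libraries it was 0.01 and 0.02, so the positive medians were near 0 once libraries were put on a common scale. At 30 min in WT, 27 of the pairs had an antisense ncRNA called lower, and across from these 13 mRNAs were higher and 1 lower, whereas of all 371 mRNAs 61 were higher and 46 lower. The 20 pairs with an antisense ncRNA called higher had 6 mRNAs higher and 1 lower. In *atf21Δ*-labelled libraries, 53 antisense ncRNAs were lower, with 12 mRNAs higher and 4 lower across from them, and 28 were higher, with 9 and 4, while of all 371 mRNAs 73 were higher and 73 lower. Most mRNAs across from a changed antisense ncRNA were thus called neither way, except across from those lower in WT, where 13 of 27 were called neither way.

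Some pairs mirrored each other. Those named are the 3 lowest and 3 highest r in WT among pairs whose ncRNA had at least 50 reads per WT library, so their r is part of the choice. SPNCRNA.1374 is contained in *cta3* (SPBC839.06), which encodes a P-type ATPase of cation transport and is a classical Sty1 target. Its RPKM in WT was 5.31, 4.41 and 4.31 at 0 min, 0.915, 1.32 and 0.600 at 15 min and 1.08, 0.924 and 1.64 at 30 min, while the *cta3* mRNA went from 0.288, 0.234 and 0.364 to 19.4, 14.4 and 23.3 and then 23.5, 21.5 and 16.2 RPKM. Before stress the antisense strand was thus above the mRNA, and at 15 and 30 min the mRNA was above the antisense strand, in every library. The ncRNA changed by -1.51 at 15 min (SE 0.23, adjusted p = 0.00016), or -1.16 (adjusted p = 0.011) without both libraries rich in zeros, and the mRNA by 5.02 (adjusted p = 4.2e-10), with r = -0.94 in WT and -0.89 in *atf21Δ*-labelled libraries, and -0.94 and -0.84 after scaling. In those libraries the ncRNA changed by -0.78 at 15 min (adjusted p = 0.0025) and -1.22 at 30 min (adjusted p = 3.4e-05).

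SPNCRNA.1235 (chrIII:1839787-1844115, plus strand) contains *gut2* (SPCC1223.03c), the gene of glycerol-3-phosphate dehydrogenase, an enzyme of the metabolism of glycerol, the osmolyte of this yeast. It went from 2.11, 1.80 and 2.18 RPKM at 0 min to 0.317, 0.245 and 0.448 at 30 min in WT, a log2 change of -1.39 (adjusted p = 0.0017), and by -1.37 (adjusted p = 0.00018) in *atf21Δ*-labelled libraries. The *gut2* mRNA went from 2.43, 2.89 and 3.26 to 55.3, 81.0 and 89.3 RPKM in WT, a log2 rise of 4.84. The pair had r = -0.75 in WT and -0.82 in the other strain. The RefSeq start window of *gut2* holds TGACGT, 70 bases before the RefSeq start, and that of *cta3* does not.

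A pair also moved with the signs reversed. SPNCRNA.1523 rose at 30 min as described above, and across from it the SPBC365.11 mRNA went from 9.18, 11.3 and 12.2 to 3.02, 4.40 and 3.48 RPKM in WT. The mRNA fell by 1.11 on the log2 scale (adjusted p = 0.0037) in WT and by 1.22 (adjusted p = 0.00047) in *atf21Δ*-labelled libraries, with no overlap of the 0 and 30 min libraries. The r was -0.88 and -0.67, and r after scaling is not given here for this pair. It was not named by its r but because SPNCRNA.1523 was among the largest rises at 30 min in WT. SPNCRNA.1523 fell short of the 50 reads per WT library asked of pairs named by r, with 18, 8 and 18 at 0 min.

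At the positive end, SPNCRNA.880 opposite *bgs2* (SPAC24C9.07c), the glucan synthase gene of the spore wall, SPNCRNA.1615 opposite the tRNA pseudouridine synthase gene *pus2* (SPBC887.11) and SPNCRNA.677 opposite the nuclear import receptor gene *kap111* (SPAC22G7.02) had r of 0.82, 0.78 and 0.78 in WT. After scaling these were 0.63, 0.67 and 0.28, and in *atf21Δ*-labelled libraries they were 0.01, 0.38 and 0.35. None of the 3 ncRNAs passed the F-test in either strain (adjusted p between 0.062 and 0.97), so these correlations stand on small movements. At 30 min SPNCRNA.1615 and SPNCRNA.677 were called lower in *atf21Δ*-labelled libraries, by -0.90 (adjusted p = 0.020) and -0.56 (adjusted p = 0.015), and the calls were lost without replicate 1 at 0 or 30 min and without replicate 3 at 0 min.

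**Figure D4:**
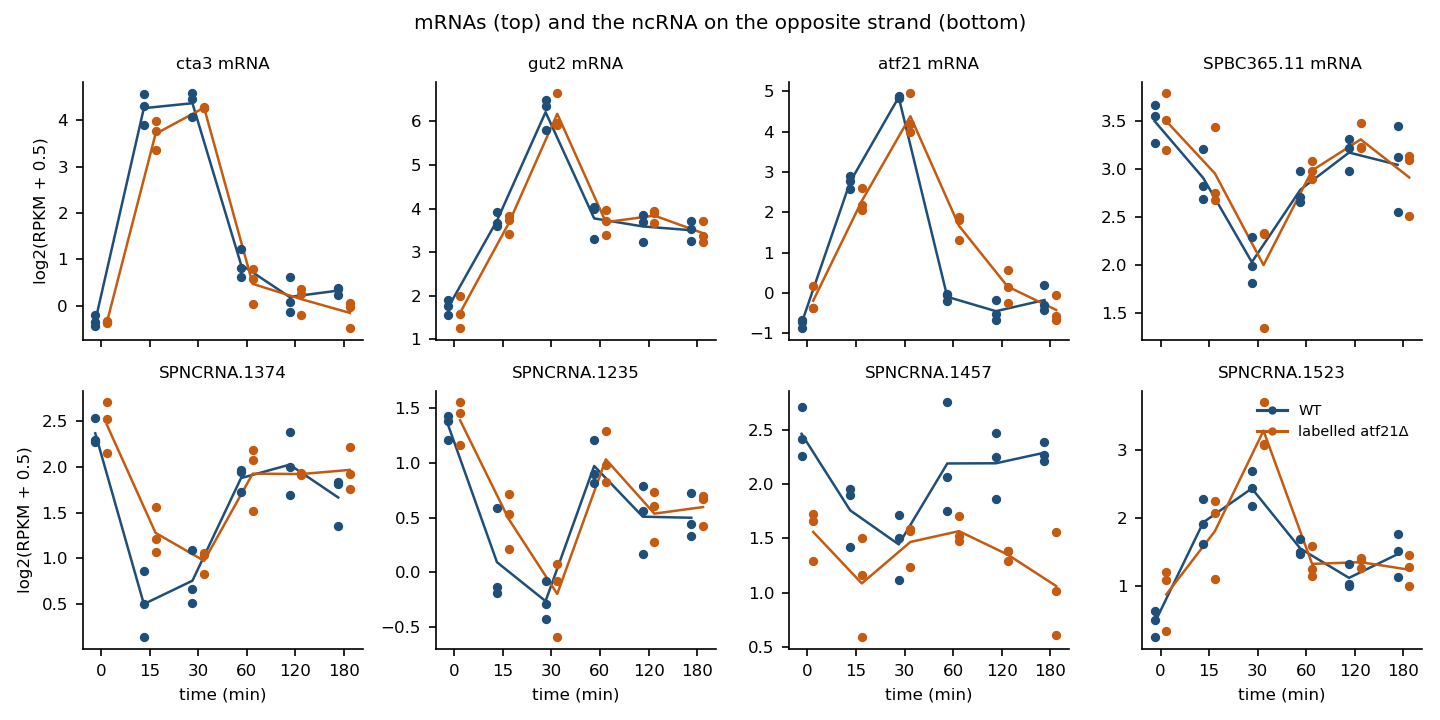
Log2 of (RPKM as deposited + 0.5) by time in 1 M sorbitol (min) for 4 mRNAs (top) and the antisense ncRNA across from each (bottom), each point a library and each line the mean of 3. The ncRNAs opposite *cta3* and *gut2* were low when the mRNA was high in both strains, SPNCRNA.1523 was high when the SPBC365.11 mRNA was low, and SPNCRNA.1457 was lower in *atf21Δ*-labelled libraries than in WT at 0 and 180 min.

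Groups of genes across from the antisense ncRNAs were set by gene lists. Of 34 stress genes found, 26 were higher and 1 lower at 30 min in WT, beside 15.5% and 13.2% of all features. In *atf21Δ*-labelled libraries 27 were higher and 2 lower, beside 19.7% and 19.1%. The list was drawn up with earlier results of these data known, so these counts describe it and are no test of the response. Only 6 of the 34 had an antisense ncRNA, of which 5 were tested: SPNCRNA.602 rose, SPNCRNA.1374 fell, and SPNCRNA.622, opposite the kinase gene *sty1*, changed by 0.03 at 30 min (adjusted p = 0.97) in WT. SPNCRNA.1324, which contains *fbp1*, the gene of fructose-1,6-bisphosphatase and a known site of stress-dependent non-coding transcription, had 3.4, 2.46 and 2.87 RPKM at 0 min, 0.315, 1.15 and 1.29 at 15 min and 2.13, 1.71 and 2.20 at 30 min in WT. It was called lower at 15 min (log2 -0.98, adjusted p = 0.028, but 0.076 without both libraries rich in zeros) and did not pass the F-test (adjusted p = 0.061), and the *fbp1* mRNA rose by 1.59 at 30 min (adjusted p = 0.0013). SPNCRNA.1678, opposite the thioredoxin reductase gene *trr1*, changed by -0.74 at 30 min (adjusted p = 0.071) in WT and fell in the other strain, by -0.79 (adjusted p = 0.036). SPNCRNA.114, opposite *cip1*, had 0 reads in 35 of the 36 libraries.

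Genes named for their rise in meiosis (symbols in *mug* or *meu*) had 39 antisense ncRNAs, 30 of them tested. Of these 16 changed over time in WT (53.3%, beside 51.8% of all features) and 15 in *atf21Δ*-labelled libraries (50.0%, beside 62.2%). At 30 min WT had 3 higher and 3 lower, beside 15.5% and 13.2% of all features. The other strain had 4 and 2, beside 19.7% and 19.1%. Ribosomal protein genes had 7 antisense ncRNAs, none of which reached the level to be tested. Of 30 genes that act on antisense RNA (exosome, RNA interference and chromatin factors), 1 was higher and 10 were lower at 30 min in WT. Of all features, 15.5% were higher and 13.2% lower then. In *atf21Δ*-labelled libraries 2 were higher and 17 lower, beside 19.7% and 19.1% of all features. Their median log2 changes were small, -0.24 and -0.36. At 15 and 60 min in WT, 4 and 1 of them were lower, beside 11.5% and 7.24% of all features, and 0 were higher, beside 10.8% and 7.6%. Their part in the changes of the antisense ncRNAs was not tested.

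Position across from the gene went with level. The contained class had the lowest median at 0 min in WT, 0.366 RPKM, and 36.8% of it was tested, while the head-to-head, containing and tail-to-tail classes had 0.683, 0.931 and 0.974 RPKM. The share of the tested that changed over time in WT was 24.1% of head-to-head, 27.0% of tail-to-tail, 29.7% of contained and 32.9% of containing ncRNAs. All features stood at 51.8% and the 402 together at 27.6%. The classes held 141, 100, 91 and 70 tested ncRNAs, and differences between them were not tested. In the *atf21Δ*-labelled strain the shares were 33.3%, 42.0%, 42.9% and 52.9%, the same order, beside 62.2% of all features and 41.0% of the 402. Containing ncRNAs are long, with a median of 2225.5 bases, and so have more reads at a given RPKM. Whether this bears on the shares was not tested.

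To ask whether the strains differed in their response, the strain-by-time interaction was tested in a fit of all 36 libraries. No antisense ncRNA passed, beside 0.034% of all features, and the lowest adjusted p by limma was 0.80. At an unadjusted p under 0.05 there were 25 of 402 (6.22%), beside 4.49% of all features, and with voom on recovered reads the count was also 0, while 1 passed without WT replicate 2 at 15 min. The lowest interaction p belonged to SPNCRNA.1628, SPNCRNA.1179 and SPNCRNA.1101. SPNCRNA.1628 (chrII:3645288-3647532, plus strand), which contains SPBP8B7.08c, had 0.0221, 0.202 and 0 RPKM at 15 min in WT after 0.612, 0.904 and 0.897 at 0 min, and 0.555, 0.524 and 0.617 after 0.536, 1.09 and 0.751 in *atf21Δ*-labelled libraries. Its low WT values thus lie at the time of the libraries rich in zeros. SPNCRNA.1101, opposite the dipeptide transporter gene SPCC757.13, had 0.329, 1.04 and 0.394 RPKM at 15 min in WT, after 2.77, 1.88 and 2.42 at 0 min, whereas the other strain had 1.53, 1.49 and 1.98 after 2.12, 2.78 and 3.08. SPNCRNA.1179, contained in *meu8*, stood at 1.39, 0.617 and 1.5 RPKM at 30 min in WT, where the other strain had 1.92, 1.94 and 3.23.

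Compared at the same time, a single antisense ncRNA differed between strains, and it was the ncRNA that contains *atf21* itself. SPNCRNA.1457 (chrII:1721083-1724641, minus strand) covers the gene (chrII:1722231-1724450, plus strand) and was lower in *atf21Δ*-labelled libraries. At 0 min it had 6.08, 4.85 and 4.29 RPKM in WT and 1.94, 2.67 and 2.81 in those libraries, and at 180 min 4.75, 4.13 and 4.33 against 1.52, 2.44 and 1.02. No library of either strain reached the range of the other at these times. The log2 difference was -1.01 at 0 min (SE 0.20, adjusted p = 0.049) and -1.29 at 180 min (SE 0.20, adjusted p = 0.0034), each beside 0.017% of all features called lower at that time. The call at 0 min sits at the threshold and was lost in 32 of 44 alternatives, 27 of them with a single library left out (each library of 0 min among them), while that at 180 min was lost with no scaling of the libraries (adjusted p = 0.088) and kept when any single library was left out. The other times had differences of -0.85, -0.17, -0.70 and -0.97 at 15, 30, 60 and 120 min (adjusted p = 0.12, 1.0, 0.27 and 0.064).

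In WT SPNCRNA.1457 was lower when the *atf21* mRNA was high: it had 2.78, 1.67 and 2.34 RPKM at 30 min, a log2 change of -0.69 (adjusted p = 0.024, lost without replicate 1 or 2 at 0 min or replicate 2 at 30 min), with no overlap with 0 min, and the mRNA rose by 5.90 (adjusted p = 2.3e-11). It did not pass the F-test over all times (adjusted p = 0.060). The pair had r = -0.78 in WT. In *atf21Δ*-labelled cells the ncRNA had 1.86, 2.47 and 2.51 RPKM at 30 min, a change of 0.15 (adjusted p = 0.68), and r was 0.18. Whether reads of SPNCRNA.1457 outside the gene carry these values cannot be told from a single value per feature.

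At 15 min, 86 antisense ncRNAs had an unadjusted strain p under 0.05 (21.4%), beside 14.7% of all features and 18.4% of other ncRNAs. There were 7 at 0 min, 38 at 30 min (9.45%, beside 8.91% of all features) and 8 to 13 later. None passed the adjustment at 15 min, beside 0.136% of all features called higher and 0% called lower. At 60 min none passed either, beside 0.051% called higher and 0.085% called lower. Without WT replicate 2 at 15 min, which leaves the WT libraries rich in zeros, 21 passed at 15 min, 2 did without WT replicate 3, and 0 did without both libraries rich in zeros.

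**Figure D5:**
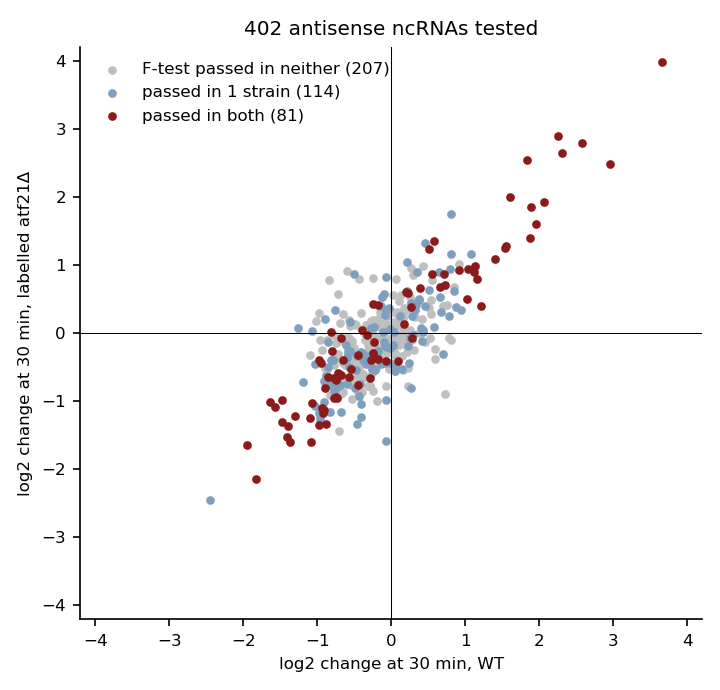
Log2 change at 30 min against 0 min of the 402 antisense ncRNAs tested, in WT (horizontal) and in *atf21Δ*-labelled libraries (vertical), coloured by whether the F-test over all times passed in neither strain (207), in 1 (114) or in both (81). Those changed in both lie mostly in the same direction in both strains, and SPNCRNA.1611 lies at the far upper right with 3.65 and 3.97.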

How the data were processed

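The authors sequenced rRNA-reduced total RNA on SOLiD with a strand-specific kit, aligned single-end reads with SHRiMP2 and counted uniquely mapped reads per feature of PomBase release 11, and deposited RPKM, with no counts. A share of 100.0% of the RPKM values could be turned back into whole reads from the step that 1 read is worth, which gave the depth of each library. The deposited RPKM was put on 1 scale by trimming and averaging log ratios between libraries without weights (30% by ratio and 5% by level at each end), filtered at 1 RPKM in more than 6 of 36 libraries (5882 features) and tested as log2(RPKM + 0.5) with limma 3.58.1 in R 4.3.3, with a trend in the prior variance. Each strain was fitted on its own against 0 min: an F-test over 5 contrasts was adjusted over features, and single times over features and times together, at an adjusted p of 0.05. Strains were compared in a fit of all 36 libraries. Voom on the recovered reads was an alternative, and called 128 and 166 antisense ncRNAs changed over time in WT and in *atf21Δ*-labelled libraries. The scripts were tested on simulated reads with changes put in at 30 min in WT. A 2-fold change was recovered in 19.6% of cases when the changed features were antisense ncRNAs and in 45% when drawn from all features. A 4-fold change was recovered in 83.8% and 98%. Of the calls, 11.2% and 7.38% were false, at an adjusted p of 0.05.

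The antisense ncRNAs named were the 6 largest rises and falls at 30 min in WT that passed in both strains without overlap of libraries, the 3 highest by mean RPKM, the largest called change in both strains in each direction at the other times, the 3 lowest and 3 highest r with the mRNA opposite (at least 50 reads per WT library), the 3 lowest interaction p, and those opposite listed stress genes. Members and gene lists were chosen with earlier results of these data known. Of 35 listed stress genes 34 were found, and of 34 listed factors acting on antisense RNA 30. Replicates were biological triplicates. Sequences were matched by identifier to RefSeq ASM294v3. Python 3.11.15, numpy 2.4.6, pandas 2.3.3 and matplotlib 3.10.9 were used.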

Additional observations from a re-analysis of the deposited data

How the results depend on the processing

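In the totals over the 5 times, 56 antisense ncRNA calls were higher and 98 lower in WT, and 93 and 180 in *atf21Δ*-labelled libraries. Leaving out a single library gave 33 to 68 (74 without both 15 min libraries rich in zeros) and 56 to 126 in WT and 61 to 99 and 121 to 196 in the other strain, with 88 to 137 and 143 to 169 changed over time, 0 to 1 with an interaction and 1 to 24 calls between strains. The medians ranged from -0.25 to -0.045 at 15 min and -0.25 to -0.18 at 30 min in WT, and from -0.16 to -0.082 at 15 min in the other strain. With a filter of 5 RPKM, 26 changed in WT (11 calls higher, 27 lower) and 31 in the other strain (13 and 40), and 0 calls stood between strains. With at least 50 reads per library the numbers were 48 (23 and 58) and 79 (35 and 94), an alternative chosen after seeing the data. With an overlap of 90% they were 57 (27 and 49) and 89 (48 and 98), with a 30 min median of -0.23 in *atf21Δ*-labelled libraries. With no filter 168 changed in WT, calls higher were 85 and 153, 4 stood between strains, and medians were -0.066 at 30 min in WT and -0.020 and -0.028 at 15 and 30 min in the other strain. With no scaling, 172 calls were lower in WT, 58 were higher and 282 lower in the other strain, 0 stood between strains, and medians at 15 and 30 min were -0.51 and -0.50 for WT, -0.47 and -0.38 for the other strain. With quantile normalization medians were 0.10 and -0.20 in WT, and -0.00019806 at 15 min in the other strain, with 1 call between strains. Pseudocounts of 0.1 and 1 gave 30 min medians of -0.30 and -0.18 in WT and -0.22 and -0.13 in the other strain. Without ncRNAs that share their strand with another feature, 34 calls were higher in WT and the mean over 3 libraries of the median level at 0 min was 0.894 RPKM in *atf21Δ*-labelled libraries, against 0.761 for all 778 taken the same way. Median r was 0.0082 and 0.024 on scaled RPKM. Some named ncRNAs turned direction in *atf21Δ*-labelled libraries at 30 min, none of them called there: SPNCRNA.1457 was at -0.092 and SPNCRNA.880 at -0.13 with no scaling, and SPNCRNA.880 ranged from -0.061 to 0.336 with a library left out, below 0 without replicate 3 at 30 min. The cause of these shifts was not tested.

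Replicate numbers were not taken to pair the libraries, since no source says what a number marks and not every pair of the same number correlated above 0.1 in its deviations from the group means. The correlation had a median of 0.145 in WT and 0.207 in *atf21Δ*-labelled libraries (27 and 33 of 45 pairs above 0.1, lowest -0.235 and -0.067), against -0.070 and -0.080 between different numbers, and 11 and 17 of 18 libraries correlated best with their own number. Libraries of the same number were thus more alike than others at the median, and the main fit does not take this into account. A replicate block gave 120 changed over time and 64 calls higher and 115 lower in WT, and its counts for *atf21Δ*-labelled libraries are not given here. It left 1 call between strains, that of SPNCRNA.1457 at 180 min. Depth limits the calls: 376 of 778 were too low to test and 281 of the 402 tested had under 50 reads per library on average.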
